A study of Mus musculus with 15 samples.

Results

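The spindle checkpoint and Aurora kinase genes examined here were 10 genes of the 55401 in the count tables. They were listed by name, with earlier results of these data known. Bub1, Bub1b, Bub3, Mad1l1, Mad2l1 and Ttk belong to the spindle assembly checkpoint. Cdc20 and Fzr1 are the activators of the anaphase-promoting complex (APC/C), and Aurka and Aurkc are kinases. All 10 were measured in 15 libraries of SMART-Seq2, a poly(A)-primed and PCR-amplified RNA-seq for very small inputs. Each library was made from a pool of 6 mouse oocytes. All mice were of the Kunming strain, with no genetic change in any group. Oocytes grown in vivo (IVV) were taken by puncture of antral follicles. The others came from follicles of mice aged 12 to 14 days, cultured in vitro without (IVG) or with neurotrophin-4 (IVG-NT) for 6 or 10 days. The methods do not make clear which age of mice gave the IVV oocytes. A difference in animal age therefore cannot be told apart from culture in the comparisons with IVV. Each of the 5 groups (IVV, IVG day 6, IVG-NT day 6, IVG and IVG-NT of day 10) held 3 libraries, and IVG and IVG-NT without a day stand for day 10 below. The cultured follicles are a model of growth outside the ovary, and each pool mixes several oocytes, so that less RNA of a gene per oocyte and fewer oocytes holding it cannot be told apart.

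The spindle assembly checkpoint delays chromosome segregation until every kinetochore is attached to microtubules. The kinase encoded by Ttk starts the signal at unattached kinetochores, Bub1 and Bub3 bind there, the Mad1l1 protein carries the Mad2l1 protein to them, and the products of Mad2l1, Bub1b and Bub3 then hold the Cdc20 protein so that it cannot activate the APC/C. In oocytes the other activator, Cdh1 (encoded by Fzr1), helps to keep the prophase arrest of the germinal vesicle stage, Aurora A (Aurka) works at the spindle poles, and Aurora C (Aurkc) is the Aurora kinase typical of germ cells. Growing oocytes store such transcripts for the meiotic divisions. What is measured here is the level of RNA, in which stored and newly made RNA cannot be told apart, and not checkpoint activity.

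Total counts per library ranged from 5954262 to 55593251, and 10991 to 22966 genes had a count. The libraries fell into 2 kinds: in 9 of them (IVV replicate 3 and replicates 1 and 2 of every cultured group) 12.5% to 37.9% of counts fell on CT010467.1, annotated as rRNA, and in the other 6 it held 0.187% to 0.714%. They are called rRNA-rich and rRNA-poor here. IVG-NT day 6 replicates 1 and 2 stood apart, the shallowest of all, with 13338 and 10991 genes with a count. All 10 oocyte markers had counts in every library, with a summed level of 11620 to 22100 normalized CPM (counts scaled to a common library size, with TMM factors). The summed level of 10 granulosa cell markers was 48.56 to 305.3. Of these 10, 8 to 10 had counts in each library apart from IVG-NT day 6 replicates 1 and 2, where 3 had. Amh, which defines these cells in small follicles, was at 0 in 13 of 15 libraries and does not stand for the other markers.

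All 10 genes had counts in every library, from 40 (Aurkc in IVG-NT day 6 replicate 2) to 42815 (Bub1b in IVG replicate 2), and all passed the filter on low counts that left 21009 genes. Compared per length, as FPKM (CPM per kilobase of exon), Bub1b was the most abundant of the 10 in 4 of 5 groups, with group means from 93.94 (IVG day 6) to 210.7 FPKM (IVG), above 97.4% to 99.1% of 20977 genes; in IVG-NT day 6 Aurka had the higher mean (113.7 ± 118.5 FPKM, SD, n = 3, against 100.4 ± 10.92). Aurka was above 94.7% to 98.1% of genes, Aurkc above 94.4% to 96.2%, Cdc20 above 91.2% to 96.3% and Ttk above 88.9% to 94.6%. Bub1 and Mad1l1 had the lowest levels per length, with median values over the libraries of 13.7 and 9.88 FPKM. The spread over the 15 libraries differed between the genes: the highest normalized CPM of Bub1b was 2.73 times its lowest, that of Mad1l1 was 27.8 times and that of Aurkc 30.9 times.

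**Figure D1:**
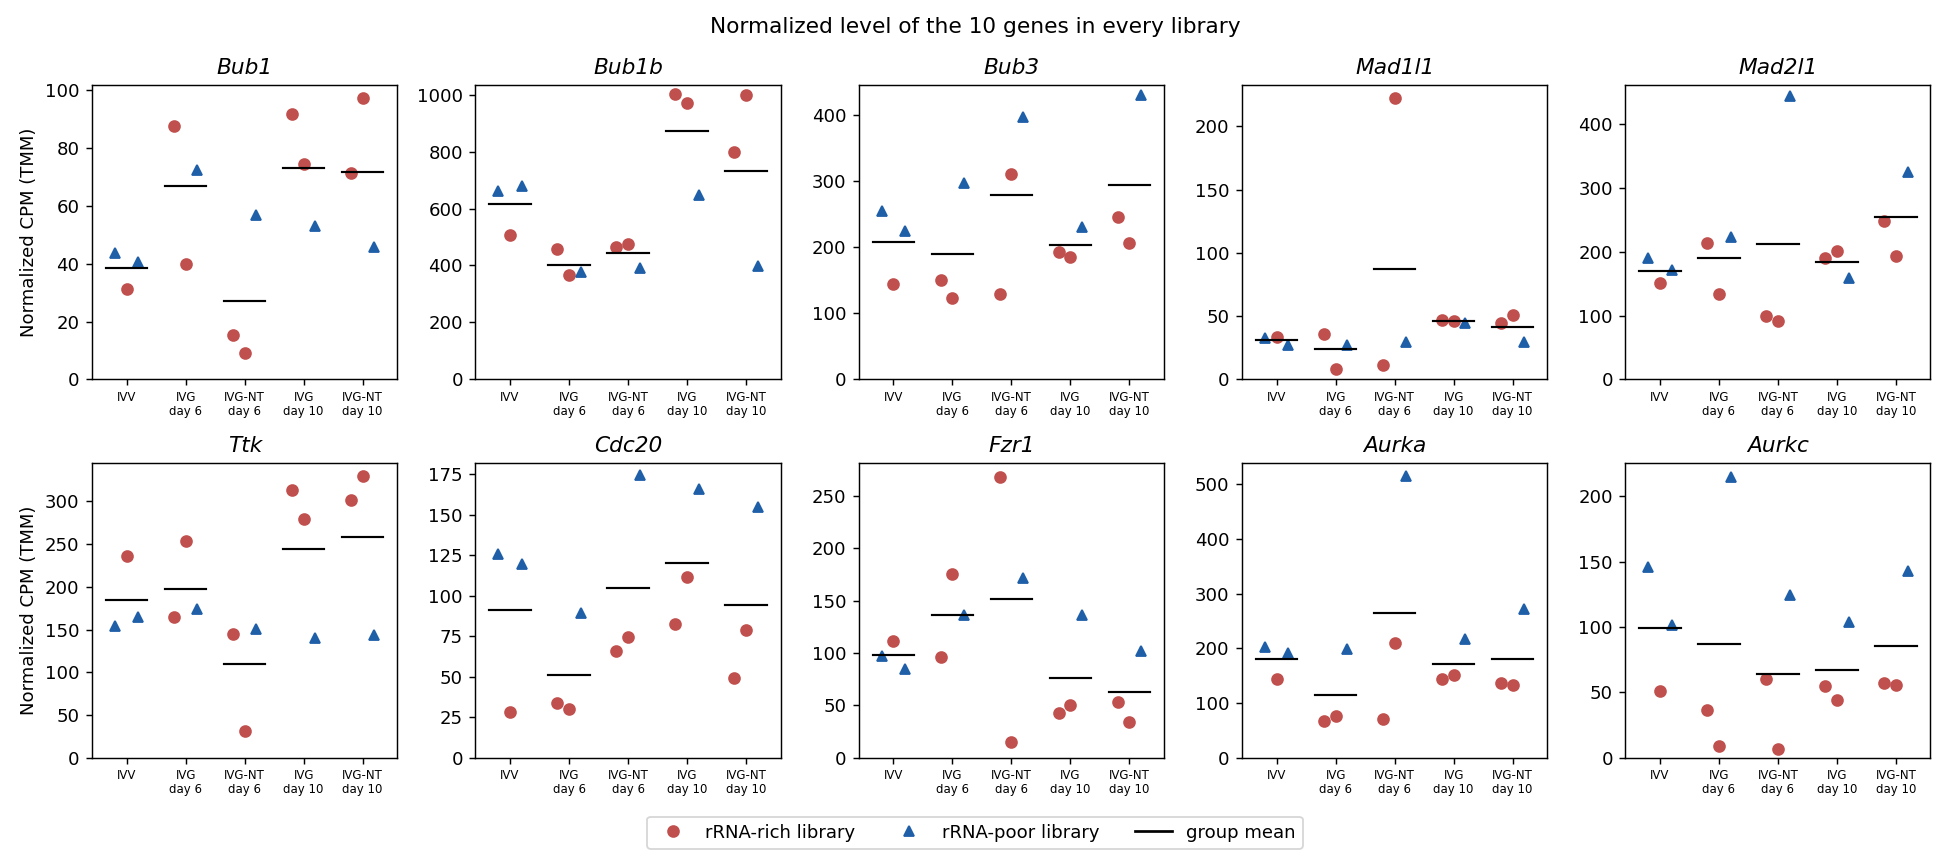
Normalized CPM (TMM; each panel has its own axis from 0) of each of the 10 genes in the 15 libraries, by group, with a horizontal bar at the group mean and the rRNA-rich and rRNA-poor libraries drawn as circles and triangles. Bub1b lies at 367 to 474 in both day 6 groups and at 648 to 1002 in IVG, and the triangles of Cdc20, Bub3, Aurka and Aurkc lie above the circles in every group.

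Bub1b was chosen as the one gene past the threshold in the comparisons below. Cdc20 and Aurka were chosen as a pair whose levels went together over the libraries. Both were higher in the rRNA-poor libraries of every group, so library kind has a part in this. The sequence upstream of these 3 genes is printed. Each is the 250 bases before the RefSeq start (GRCm38.p6), on the strand of the gene, at chr2:118597961-118598210 for Bub1b, chr4:118437344-118437593 for Cdc20 and chr2:172370571-172370820 for Aurka; the GENCODE start lies 9 bases inside the window for Cdc20. Capitals mark matches on either strand to CCAAT, the box bound by NF-Y, TTTGAA, the core of the cell cycle homology region found in promoters of many late cell cycle genes, and the E-box CACGTG; no matches overlap.
Bub1b: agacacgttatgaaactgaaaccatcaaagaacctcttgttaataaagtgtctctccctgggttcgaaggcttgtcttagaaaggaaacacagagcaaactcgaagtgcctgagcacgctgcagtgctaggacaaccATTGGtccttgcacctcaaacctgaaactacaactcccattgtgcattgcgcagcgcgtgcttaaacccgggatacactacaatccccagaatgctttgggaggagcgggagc
Cdc20: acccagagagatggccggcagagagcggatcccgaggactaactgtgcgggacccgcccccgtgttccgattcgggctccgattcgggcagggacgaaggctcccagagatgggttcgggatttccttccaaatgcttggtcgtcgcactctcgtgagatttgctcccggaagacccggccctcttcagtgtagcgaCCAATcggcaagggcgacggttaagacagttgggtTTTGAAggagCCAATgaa
Aurka: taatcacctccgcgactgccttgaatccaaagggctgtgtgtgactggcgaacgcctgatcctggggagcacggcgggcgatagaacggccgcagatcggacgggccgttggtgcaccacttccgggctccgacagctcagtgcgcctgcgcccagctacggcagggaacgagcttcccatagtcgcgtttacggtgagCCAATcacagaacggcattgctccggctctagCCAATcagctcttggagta
The Cdc20 window holds 2 CCAAT and 1 TTTGAA match, that of Aurka 2 CCAAT matches and that of Bub1b 1. Over the 10 genes, 7 windows hold CCAAT (all but Mad1l1, Mad2l1 and Aurkc), against 33.8% of 32817 windows of this length before RefSeq starts. TTTGAA is in 2 of 10 (Bub3 and Cdc20), against 16%, and CACGTG in 1 of 10 (Ttk), against 6.0%. These are letters in a window, with no measure of binding.

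Bub1b, on chromosome 2 (GRCm38 chr2:118598211-118641591, plus strand), encodes BubR1, the checkpoint protein that binds Cdc20. Its normalized CPM was 660, 508 and 678 in IVV, 456, 367 and 377.5 in IVG day 6, and 463, 474 and 390.2 in IVG-NT day 6. The day 10 values were 1002, 971 and 648 in IVG and 797, 998 and 398.5 in IVG-NT. All 3 IVG libraries of day 10 lay above all 3 of day 6, while the IVG-NT libraries overlapped between the days through replicate 3 of day 10, at the day 6 level. By mean level the groups ran from IVG (873.8 ± 195.8, SD, n = 3) over IVG-NT (731.1 ± 305.1), IVV (615.2 ± 93.58) and IVG-NT day 6 (442.4 ± 45.5) to IVG day 6 (400.2 ± 48.75). The ranges of IVG, IVG-NT and IVV overlapped, as did those of both day 6 groups.

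Bub1, on the same chromosome (chr2:127801122-127831865, minus strand), encodes the kinase that recruits other checkpoint proteins to kinetochores. Its normalized CPM was 43.5, 31.2 and 40.6 in IVV, 87.7, 39.95 and 72.5 in IVG day 6, and 15.2, 9.05 and 56.7 in IVG-NT day 6. On day 10 it was 91.6, 74.6 and 53.2 in IVG and 71.5, 97.3 and 45.7 in IVG-NT. Every cultured library of day 10 lay above all 3 IVV libraries, and the lowest values were those of IVG-NT day 6 replicates 1 and 2, the 2 shallow libraries. Day 10 IVG (73.12 ± 19.27, SD, n = 3), IVG-NT (71.51 ± 25.8) and IVG day 6 (66.72 ± 24.4) came close together, ahead of IVV (38.43 ± 6.461) and IVG-NT day 6 (26.97 ± 25.91), and neighbours in this order overlapped.

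Ttk (chr9:83834689-83872389, plus strand), whose kinase MPS1 starts the checkpoint signal, had normalized CPM of 155, 236 and 164 in IVV, 165, 253 and 174 in IVG day 6, and 145, 31.7 and 151 in IVG-NT day 6. On day 10 its values were 314, 279 and 140.4 in IVG and 302, 329.7 and 143 in IVG-NT. Values near or above 279 were found in the 4 rRNA-rich libraries of day 10 alone, and replicate 3 of both day 10 groups lay below the lowest IVV value. The group means were 258.3 ± 100.7 (IVG-NT), 244.4 ± 91.73 (IVG), 197.5 ± 48.46 (IVG day 6), 184.8 ± 44.27 (IVV) and 109.2 ± 67.19 (IVG-NT day 6; SD, n = 3 each), and neighbours in this order overlapped apart from IVG-NT day 6, whose 3 libraries lay below all others but the day 10 replicates 3.

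Bub3 (chr7:131560222-131571895, plus strand), the WD-repeat protein that brings Bub1 and BubR1 to kinetochores, had normalized CPM of 255, 145 and 225 in IVV, 151, 123 and 297 in IVG day 6, and 129.9, 311 and 397 in IVG-NT day 6. Its day 10 values were 192, 186 and 231 in IVG and 246, 206 and 430 in IVG-NT. Every group overlapped every other. The gene overlaps Fgfr2 on the other strand, and since no strand-specific counting is stated, reads of such pairs cannot be told apart.

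Mad1l1 (chr5:140008689-140321552, minus strand), which anchors Mad2 at unattached kinetochores, had normalized CPM of 33.1, 33.5 and 27.3 in IVV, 36.1, 7.98 and 27.0 in IVG day 6, and 11.02, 222 and 29.6 in IVG-NT day 6. The cultures of day 10 gave 47.2, 46.3 and 44.6 in IVG and 44.4, 50.9 and 29.5 in IVG-NT. IVG was the tightest group and lay above every IVV and IVG day 6 library, while the 222 of IVG-NT day 6 replicate 2 stood far above the next highest value of the gene, 50.9. Annotated genes overlap Mad1l1 on both strands (Gm43702, Gm43195, Gm16120, Gm16121 and Gm16122), so its counts are uncertain in the same way.

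Mad2l1 (chr6:66535390-66547220, plus strand) encodes the protein whose closed form captures Cdc20. Its normalized CPM was 189.6, 151 and 171 in IVV, 214, 133 and 223 in IVG day 6, and 100.1, 92.1 and 443.5 in IVG-NT day 6. At day 10 the values were 190.1, 201 and 159 in IVG and 247, 193 and 324 in IVG-NT. The IVG-NT libraries lay above all 3 of IVV, by a small margin in replicate 2, and overlapped with IVG.

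Cdc20 (chr4:118432901-118437352, minus strand), the APC/C activator that the checkpoint restrains, had normalized CPM of 126, 28.4 and 119 in IVV, 34.0, 30.1 and 89.3 in IVG day 6, and 65.96, 74.7 and 175 in IVG-NT day 6. On day 10 it had 82.8, 112 and 166 in IVG and 49.3, 79.0 and 155 in IVG-NT. In all 5 groups the rRNA-poor libraries lay above the rRNA-rich ones. By mean level IVG (120 ± 42.08, SD, n = 3) came before IVG-NT day 6 (105.1 ± 60.37), IVG-NT (94.38 ± 54.38), IVV (91.18 ± 54.43) and IVG day 6 (51.12 ± 33.1), and neighbours in this order overlapped. The gene overlaps Elovl1 on the other strand.

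Fzr1 (chr10:81366222-81378516, minus strand), which encodes Cdh1, had normalized CPM of 97.3, 112 and 84.3 in IVV, 96.6, 175 and 136 in IVG day 6, and 268.5, 14.6 and 172 in IVG-NT day 6. On day 10 it had 42.7, 50.3 and 136 in IVG and 52.9, 33.9 and 102 in IVG-NT. Replicates 1 and 2 of both day 10 groups lay below all IVV libraries and replicate 3 of each did not. The shallow IVG-NT day 6 libraries held both the highest and the lowest value of this gene, which overlaps Mfsd12 on the other strand.

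Aurka (chr2:172356190-172370535, minus strand), the kinase of the spindle poles, had normalized CPM of 203, 145 and 192 in IVV, 66.6, 77.1 and 199 in IVG day 6, and 70.1, 209.7 and 516 in IVG-NT day 6. Its values on day 10 were 144, 151 and 217 in IVG and 136, 133 and 272 in IVG-NT. The means of IVG-NT (180.3 ± 79.12, SD, n = 3), IVV (179.8 ± 31.01) and IVG (170.8 ± 40.41) were close, and all 5 groups overlapped.

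Aurkc (chr7:6995300-7003091, plus strand), the germ cell member of the chromosomal passenger complex, had normalized CPM of 146, 51.1 and 101 in IVV, 36.6, 9.06 and 215 in IVG day 6, and 60.5, 6.96 and 124.5 in IVG-NT day 6. On day 10 it had 54.6, 43.9 and 103.5 in IVG and 56.9, 56.0 and 142.5 in IVG-NT. All 5 groups overlapped, and in each the rRNA-poor libraries were the highest. Its counts are uncertain for a further reason. Transcripts of 10 annotated pseudogenes match Aurkc over at least 200 bases at 90% identity or more, among them the processed pseudogene Gm12463 (99.2% over 849 bases), which had counts in every library, up to 9384. Aurkc took 40.9% to 63.6% of the sum of Aurkc and these copies in 13 libraries, but 14.0% in IVG-NT day 6 replicate 2 and 17.7% in IVG day 6 replicate 2, the 2 libraries with its lowest values. The sum of Aurkc and its copies ran from 124.8 to 288.9 normalized CPM in IVV, from 79.52 to 190.9 in IVG and from 87.95 to 247.1 in IVG-NT, so the groups overlapped with the copies included as well. For Cdc20, Bub3 and Mad2l1, processed pseudogenes of this likeness held at most 15 counts in any library, and none was found for the other 6 genes.

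Whether growth in culture changes these transcripts was asked by comparing IVG with IVV. None of the 10 genes passed the threshold used by the study (log2 fold change beyond 1 and unadjusted P under 0.05 in edgeR), which 2.76% of all genes passed. The 10 log2 fold changes lay between -0.56 (Aurkc) and 0.93 (Bub1), 6 above 0 and 4 below, with a median of 0.26 beside -0.20 for all genes. Bub1 and Mad1l1 were the 2 genes whose libraries did not overlap, both higher in IVG, against 11.9% of all genes. The log2 fold change of Bub1 was 0.93 (SE 0.75) and that of Mad1l1 0.56 (SE 0.92). For both, the two-sided exact permutation test gave p = 0.1, the smallest that 3 libraries against 3 allow. Library kind was unequal here, since only replicate 3 of IVV was rRNA-rich, against replicates 1 and 2 of IVG. In the rRNA-rich and rRNA-poor libraries the mean log2 CPM differed by 1.41 and 0.34 for Bub1 and by 0.48 and 0.57 for Mad1l1. These differences were 0.96 and -0.04 for Bub1b, 1.76 and 0.44 for Cdc20, and -1.27 and 0.59 for Fzr1. Markers of dividing cells (Mki67, Pcna, Mcm2, Mcm5, Rrm2 and Tk1) were also higher in IVG, though none of the 6 passed the threshold. Their summed level was 430.5 to 467.4 normalized CPM in IVV and 501 to 746.7 in IVG, without overlap. Their part in the differences of Bub1 and Mad1l1 was not tested.

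No gene of the 21009 had an adjusted p under 0.05 in edgeR in any comparison (0% of genes, with 261 to 2661 genes at unadjusted P under 0.05), so no member did either. The lowest adjusted p of the 10 was 0.442, and in IVG against IVV, IVG-NT against IVV, IVG-NT against IVG on day 10 and IVG between the days it was 1 for every one. The DESeq2 Wald test put 51 to 715 genes under an adjusted p of 0.05, but none of these 10, whose lowest adjusted p by DESeq2 was 0.158 (Mad1l1, IVG-NT day 6 against IVG day 6).

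Set against IVV, the IVG-NT oocytes gave a like picture with the same control libraries. No member passed the threshold, which 3.29% of genes did, and the log2 fold changes ran from -0.63 (Fzr1) to 0.90 (Bub1), with a median of 0.33 beside -0.19 for all genes. Bub1 (0.90, SE 0.75) and Mad2l1 (0.58, SE 0.65) did not overlap between the groups and were higher in IVG-NT, against 11.6% of all genes without overlap. The other 8 lay between -0.63 and 0.50. Library kind was unequal in the same way. In the rRNA-rich and rRNA-poor libraries the mean log2 CPM of Bub1 differed by 1.42 and 0.12, and that of Mad2l1 by 0.54 and 0.85. The summed dividing cell markers did not overlap here either, at 474.2 to 794.7 normalized CPM in IVG-NT and 430.5 to 467.4 in IVV. Their part in these differences was not tested.

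The effect of neurotrophin-4 (NT-4), a ligand of the receptor TrkB, was asked on both culture days. On day 10, IVG-NT and IVG were the most alike of the pairs compared for these genes: none of the 10 passed the threshold (1.24% of genes did), none was without overlap (3.59% of genes were), and the log2 fold changes lay between -0.35 (Cdc20, SE 0.76) and 0.54 (Bub3, SE 0.61), 5 above 0 and 5 below. The standard errors ran from 0.50 (Bub1b) to 1.03 (Aurkc). Libraries of these 2 groups were also compared by replicate number, which in part stands for library kind. Between same-numbered libraries Cdc20 was lower in IVG-NT in 3 of 3 and Bub3 and Aurkc higher in 3 of 3. The other 7 genes went both ways (21% of all genes went 1 way in all 3). With the replicate block the log2 fold changes were -0.43 for Cdc20 (SE 0.77), 0.48 for Bub3 (SE 0.63) and 0.29 for Aurkc (SE 0.96), and none of the 10 passed.

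On day 6 the differences were larger and so was their spread. None of the 10 genes passed the threshold, against 11.6% of all genes, but 4 had log2 fold changes beyond 1 in size. Mad1l1 was at 1.88 (SE 0.95), Aurka at 1.22 (SE 0.72), Cdc20 at 1.04 (SE 0.77) and Bub1 at -1.30 (SE 0.76), all 4 with overlapping libraries and two-sided exact permutation p-values of 0.2 to 0.5. Ttk (-0.85, SE 0.66) was the single member without overlap, lower in IVG-NT in all 3 libraries, against 8.45% of genes. The median of the 10 was 0.16 beside -0.27 for all genes.

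These day 6 values moved with single libraries. Without IVG-NT day 6 replicate 2 the log2 fold change of Mad1l1 was -0.17, and without replicate 3 that of Bub1 was -2.47 and passed the threshold, while with both shallow libraries left out it was -0.16 and that of Ttk -0.30. The log2 fold changes of Aurka and Cdc20 were then 2.24, which passed, and 1.83, which did not. Without IVG-NT day 6 replicate 3, the one deep library of the group, they were 0.29 and 0.45. Between the 2 rRNA-poor libraries of day 6 Aurka differed by 1.38, and between the means of the rRNA-rich ones by 0.76.

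Markers of other cell types moved in the same comparison. In the 2 shallow libraries 3 of 10 granulosa cell markers had counts, against 8 or 9 in the IVG day 6 libraries. Fshr, Hsd17b1 and Fst passed the threshold as lower in IVG-NT. The summed level of the 10 granulosa cell markers overlapped, at 105, 120.1 and 48.56 normalized CPM in IVG-NT and 90.07, 146.4 and 53.78 in IVG. The summed level of 6 macrophage markers was 53.13, 0 and 4.336 normalized CPM in IVG-NT and 0, 0 and 1.486 in IVG, with Csf1r and Lyz2 called higher. That of 8 theca and stroma markers was 3.253, 65.61 and 7.483 against 1.224, 0 and 1.78, with Dcn called higher. Each of the high macrophage and stroma sums came from 1 library, and the part of these cells in the differences of the 10 genes was not tested.

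Whether the NT-4 difference itself changed between the days was tested as an interaction. No member passed the threshold (6.37% of genes did). The largest values were -2.03 for Mad1l1 (SE 1.31), -1.39 for Cdc20 (SE 1.08), 1.27 for Bub1 (SE 1.06) and -1.14 for Aurka (SE 1.01), with adjusted p-values from 0.898 up, so for none of the 10 was a different NT-4 effect on the 2 days shown.

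Between day 6 and day 10 without NT-4, Bub1b was the one gene of the 10 that passed the threshold, which 2.90% of all genes passed. Its level was 2.18-fold higher on day 10 (log2 fold change 1.13, SE 0.51) and higher in 3 of 3 libraries, with an unadjusted P = 0.0416 and an adjusted p = 1 in edgeR, and p = 0.1 in the two-sided exact permutation test. Bub1b and Mad1l1 (0.96, SE 0.92) were the 2 genes without overlap, against 7.42% of all genes, and both were higher on day 10. Cdc20 had a larger difference than Bub1b (1.23, SE 0.77), with overlapping libraries, and the other 7 genes lay between -0.83 (Fzr1) and 0.58 (Aurka). The median of the 10 was 0.22 beside 0.05 for all genes. In the same comparison the granulosa marker Inhba passed as higher on day 10 (6.795, 71.33 and 64.31 normalized CPM against 0.72, 0 and 0.5002), Zp2 of the zona pellucida passed as lower (log2 fold change -1.29), and the summed oocyte markers did not overlap (12770 to 14310 on day 10, 14960 to 22100 on day 6); their part in the Bub1b difference was not tested.

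The call of Bub1b stood close to its limit. With the replicate number as a block, which in part stands for library kind, its log2 fold change was 1.09 and no longer passed. It passed without IVG replicate 3 and not without any other 1 library (1.02 to 1.30), so IVG replicates 1 and 2 and all 3 IVG day 6 libraries were each needed. Inside the kinds of library the direction was the same, with a difference of means of 1.27 in the rRNA-rich libraries and 0.78 between the 2 rRNA-poor ones.

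With NT-4, no member passed the threshold between the days (12.7% of genes did) and none was without overlap (11.0% of genes were). The log2 fold change was 1.40 for Bub1 (SE 0.76), 1.24 for Ttk (SE 0.66), -1.27 for Fzr1 (SE 0.85) and -1.07 for Mad1l1 (SE 0.93), and 0.72 for Bub1b (SE 0.51). The differences of Bub1 and Ttk were 2.82 and 2.22 in the rRNA-rich libraries, where the day 6 libraries are the shallow ones, and -0.31 and -0.08 between the rRNA-poor ones. The log2 fold change of Mad1l1 was 0.95 without IVG-NT day 6 replicate 2. Without replicate 3 of that group, Bub1 passed at 2.57. Markers of other cell types moved here too. Of 9 granulosa cell markers tested, 5 passed as higher on day 10 (Fshr, Inha, Inhba, Hsd17b1 and Fst). The median of these 9 was 3.86 beside 0.40 for all genes. The summed level of the granulosa cell markers was 122.6 to 245.5 normalized CPM on day 10 and 48.56 to 120.1 on day 6. The macrophage marker Csf1r passed as lower (-5.70). The part of these cells in the differences of the 10 genes was not tested.

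**Figure D2:**
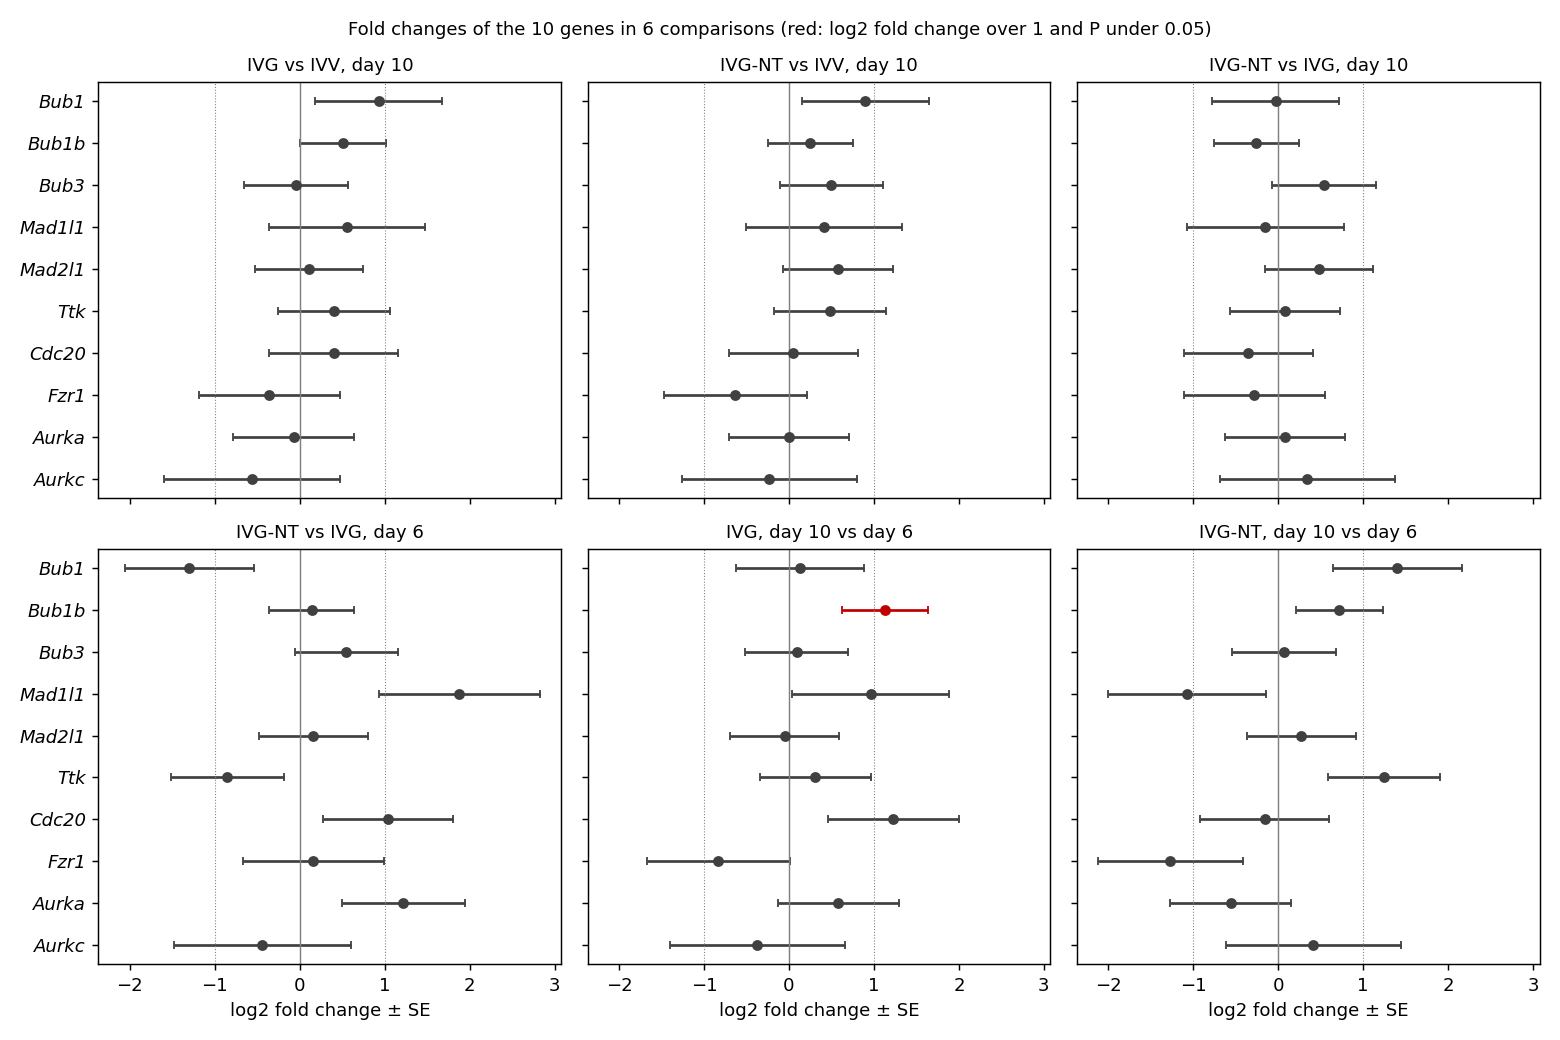
Log2 fold change with its standard error (bars) of each of the 10 genes in the 6 comparisons of groups, from the edgeR fit of all 15 libraries, with dotted lines at the threshold of 1 in either direction. The red point, Bub1b in IVG between the days (1.13), is the one that also had P under 0.05; on day 10 the IVG-NT and IVG values all lie between -0.35 and 0.54.

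The kind of library moved with several of the genes. In every one of the 5 groups the rRNA-poor libraries were above the rRNA-rich ones for Cdc20, Aurka, Aurkc and Bub3, 4 of the 10 genes, as for 15.9% of all genes tested. The difference of mean log2 CPM between the kinds was 0.79 to 2.11 for Cdc20, 1.08 to 3.56 for Aurkc, 0.45 to 2.09 for Aurka and 0.29 to 1.12 for Bub3. Bub1b (-1.16 to 0.40), Ttk (-1.14 to 1.15), Bub1 (-0.87 to 2.27) and Mad1l1 (-0.74 to 0.66) were lower in the rRNA-poor libraries of both day 10 groups but not in all others. For Mad1l1 the difference in IVG was small, at -0.07.

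**Figure D3:**
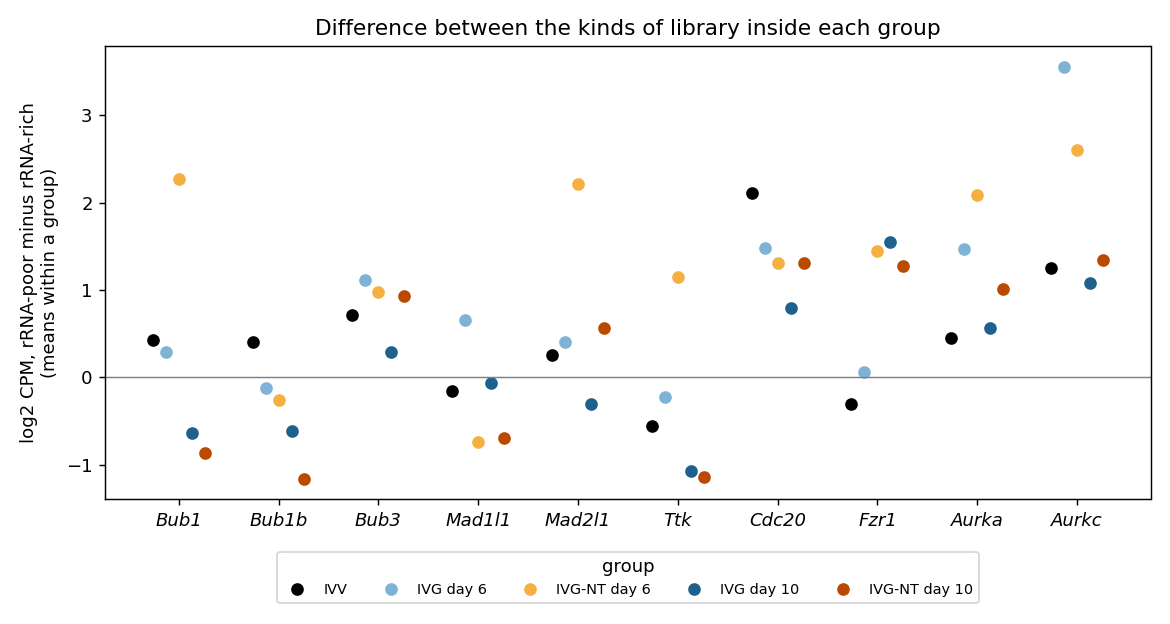
Mean log2 CPM of the rRNA-poor libraries minus that of the rRNA-rich libraries inside each group, for each of the 10 genes (1 point per group). All 5 points of Bub3, Cdc20, Aurka and Aurkc lie above 0, with the highest at 3.56 for Aurkc in IVG day 6.

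With the kind of library as a term in the fit, the spread shrank and more of the 10 genes passed the threshold, as did more of all genes. Between the days without NT-4, Bub1b (1.10, SE 0.31) and Cdc20 (1.39, SE 0.42) passed, against 4.86% of all genes. Cdc20 also passed in IVG against IVV (1.08, against 3.83% of genes), in IVG-NT against IVG on day 6 (1.08), where Aurka passed as well (1.14, against 15.8% of genes), and in the interaction (-1.54, against 8.96%). Bub1 passed between the days with NT-4 (1.57, against 16.9%). None passed in IVG-NT against IVV (4.31% of genes did) or against IVG on day 10 (2.03%), and no gene had an adjusted p under 0.05 in this fit. Replicate numbers 1 and 2 against 3 name the same split in the cultured groups, and what sets the kinds apart was not tested.

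Other genes of the pathway were counted from lists of known partners: 10 checkpoint partners, 19 genes of the APC/C and its enzymes and inhibitors, 6 APC/C substrates, 12 genes of the chromosomal passenger complex and Aurora partners, and 16 core kinetochore genes, 63 in all and all tested. In IVG against IVV 1 of the 63 passed the threshold, where 2.76% of all genes did, Ajuba, a LIM protein that can activate Aurora A. Its counts were 18, 47 and 43 in IVV and 0 in all IVG libraries, at least 43.3-fold lower against a floor of 3 counts over the group, so its level rests on few counts in IVV too. None of the 63 passed in IVG-NT against IVV or against IVG on day 10. The median of the 12 passenger complex and Aurora partners was 0.58 in IVG against IVV and 0.52 in IVG-NT against IVV, beside -0.20 and -0.19 for all genes, and those of the other lists lay between -0.35 (kinetochore core) and 0.25 (APC/C substrates).

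In IVG-NT against IVG on day 6, Cep192, a spindle pole scaffold that recruits Aurora A, and Cenpc1, the inner kinetochore protein CENP-C, passed and were lower in IVG-NT, 2 of the 63 genes in a comparison where 11.6% of all genes passed. Cep192 had 3.43, 6.96 and 18.1 normalized CPM in IVG-NT and 92.7, 53.8 and 22.3 in IVG (log2 fold change -2.56, SE 1.04). Cenpc1 had 6.69, 0 and 12.2 against 49.2, 73.3 and 15.6 (-2.86, SE 1.26). The IVG-NT libraries lay below all of IVG for both genes, with the wide gap in the 2 shallow libraries. With both of these left out 1 of the 63 genes passed.

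Between the days without NT-4, Ube2s, the enzyme that extends ubiquitin chains on APC/C substrates, was lower on day 10 and the only one of the 63 genes to pass, where 2.90% of all genes did. Its normalized CPM was 33.6, 46.1 and 138.5 on day 10 and 167.5, 309 and 148 on day 6 (log2 fold change -1.52, SE 0.71). None of the 63 passed here with DESeq2 (size factors or Wald test), with no filter on low counts, with the rRNA gene left out, in a fit of these 2 groups alone, or without replicate 1 or 2 of either group. With NT-4, Ube2s was again lower on day 10, at 102, 45.3 and 191 against 507, 246 and 304 (-1.65, SE 0.71), while 3 Aurora partners were higher, 4 of the 63 genes in all where 12.7% of all genes passed. Plk1, the polo kinase, had 530.4, 513 and 197 against 45.9, 214 and 145 (1.61, SE 0.69). Cep192 (2.23, SE 1.03) and Nedd9, a scaffold protein that activates Aurora A (2.91, SE 1.30), passed too. Ube2s did not overlap between the days in either culture, though by a small margin without NT-4 (138.5 against 148), while Plk1 overlapped through the 214 of a shallow day 6 library. With both shallow libraries left out, none of the 63 passed between the days with NT-4. None passed in the interaction.

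**Figure D4:**
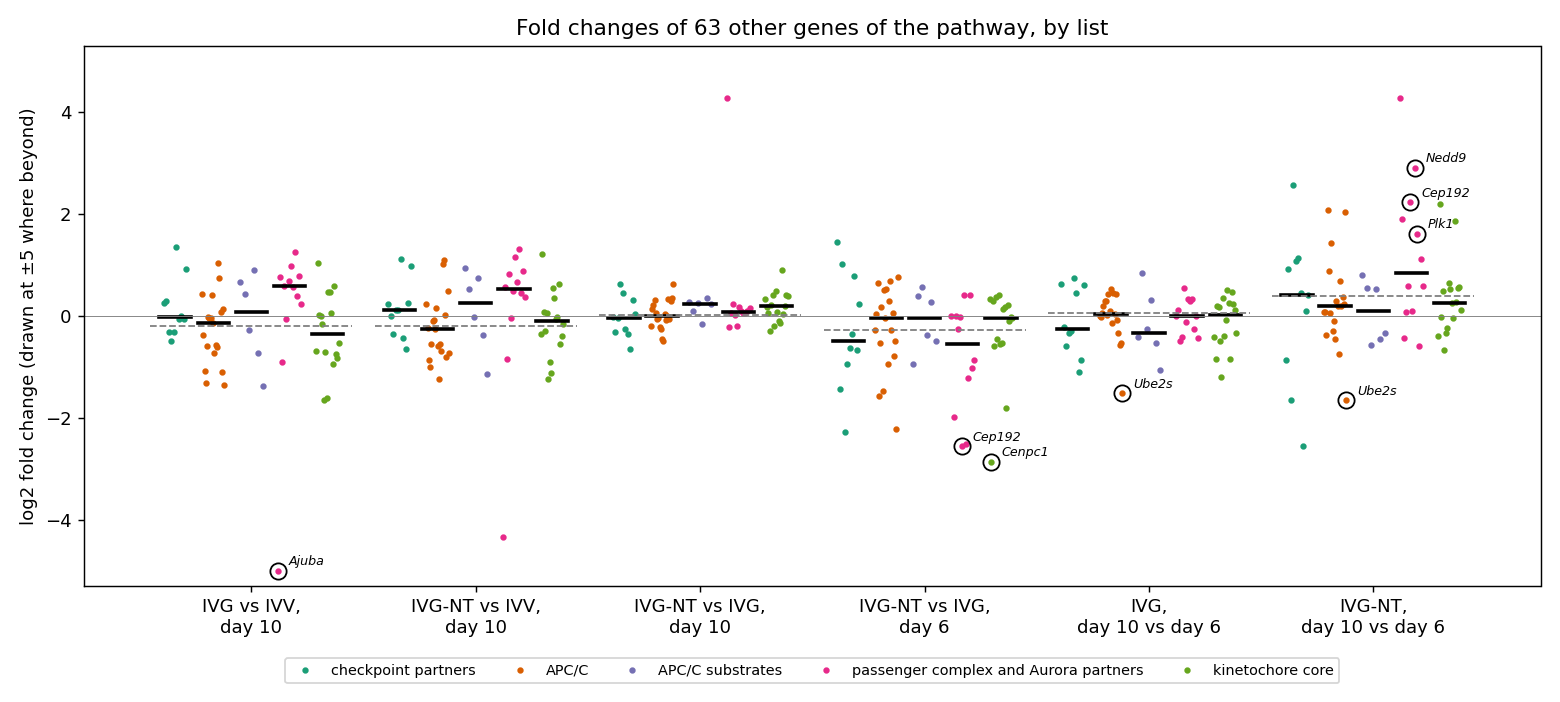
Log2 fold changes of the 63 other pathway genes in the 6 comparisons (points, coloured by list, drawn at the limit where beyond 5 in size), with a black bar at the median of each list, a dashed line at the median of all genes, and circles with names for genes past the threshold. The passenger complex and Aurora partner medians are 0.58 and 0.52 against IVV, and the day 6 groups scatter most.

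The 10 genes varied together in part. Over the 15 libraries Spearman's rho of log2 CPM was 0.83 for Bub3 with Aurka and 0.80 for Cdc20 with Aurka, pairs that share the difference between the library kinds. In the rRNA-rich libraries alone rho was 0.53 and 0.38 for these pairs, and in the rRNA-poor ones 0.71 and 0.89. Bub1 and Ttk had 0.62 over all libraries, 0.82 in the 9 rRNA-rich ones and 0.03 in the 6 rRNA-poor ones. The gene most like each member over the 15 libraries was Rsc1a1 for Bub1b (rho 0.936), Nup98 for Ttk (0.964), Ppie for Aurka (0.971), Apex1 for Mad2l1 (0.96), Gcat for Cdc20 (0.957), Zbtb46 for Mad1l1 (0.957), AC166058.1, a processed pseudogene, for Bub1 (0.957), Ptbp2 for Aurkc (0.946), Xxylt1 for Fzr1 (0.939) and Sod2 for Bub3 (0.932). Each is the highest rho among all genes tested, so a high value comes with the choice. From 1 gene (for Bub1b) to 52 genes (for Ttk) had rho over 0.9 with a member. The points of these correlations share library kind and depth.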

How the data were processed

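Titles gave each library's group and replicate number (2, 3 and 4 for IVV). Another deposited label numbers the IVV libraries otherwise, and the title numbers were used. The authors discarded reads of low quality, used HISAT2 to align to mm10, and deposited raw counts per Ensembl gene for each library; how the counts were taken, their strand and the annotation release are not given in the sources used here. Of the identifiers, 99.5% have a symbol in GENCODE vM21. Counts were filtered (edgeR filterByExpr, minimum count 10), normalized by TMM and tested with edgeR 4.0.16 (quasi-likelihood, R 4.3.3), fitting the 5 group means together, with Benjamini-Hochberg adjustment over all 21009 genes. SE is the size of the log2 fold change over the root of F. FPKM used the union of exons. The fit was run on simulated counts without library kinds and with larger changes than that of Bub1b. That run therefore says nothing on calls near the threshold. DESeq2 1.42.0, other filters and scalings, library kind (limit 5% of counts, set after the shares were seen), single libraries left out and a replicate block were alternatives. Near copies were sought with BLAST 2.17.0. Deviations of same-numbered libraries correlated at 0.147 to 0.538 between IVG and IVG day 6 and at 0.37 to 0.732 between IVG-NT and IVG. They correlated at 0.083 to 0.328 and 0.066 to 0.26 in the other cultured comparisons and, by title number, below 0 with IVV. By these numbers replicate 3 is rRNA-rich in IVV and rRNA-poor in every cultured group. The block therefore cannot check pairing in the comparisons with IVV. The highest values were those of replicate 3, the rRNA-poor library. Among the rRNA-rich libraries the values went both ways. IVG replicate 1 correlated at 0.37 with IVG-NT replicate 1 and at 0.374 with replicate 2. For IVG replicate 2 the values were 0.413 with IVG-NT replicate 2 and 0.272 with replicate 1. IVG replicate 2 correlated at 0.147 with IVG day 6 replicate 2 and at 0.258 with replicate 1. For IVG replicate 1 they were 0.23 with IVG day 6 replicate 1 and 0.187 with replicate 2. Pairing by number apart from library kind was thus not shown. With the block Bub1b between the days was at 1.09. All 10 genes were to be named with every value, folds printed where beyond 1 on the log2 scale or without overlap, and list genes where they passed the threshold. Members, lists and the rule were chosen with earlier results of these data known. Reads carry no molecular identifier. The methods give 3 replicated experiments per group and the labels no animals, so P-values measure the spread between these libraries. The series-wide table repeats the per-library counts and was not used.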

Additional observations from a re-analysis of the deposited data

How the results depend on the processing

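The number of the 10 genes past the threshold stayed at 0 in IVG-NT against IVV and against IVG on day 10 under all alternatives tried. Without NT-4 between the days it was 1, and 0 with no filter on low counts, 0 with the replicate block, 2 with the kind of library as a term, 2 in the rRNA-rich libraries alone (Bub1b and Cdc20) and 0 to 1 with single libraries left out. In IVG against IVV it was 0, and 1 with the kind of library. In IVG-NT against IVG on day 6 it was 0, and 1 with DESeq2 size factors and 1 with the DESeq2 Wald test (Mad1l1 at 2.33 in both), 2 with the kind of library, 1 in the rRNA-rich libraries alone (Bub1 at -2.48), and 0 to 2 with single libraries left out. With NT-4 between the days it was 0, and 1 with the kind of library, 3 in the rRNA-rich libraries alone (Bub1, Mad2l1 and Ttk) and 0 to 3 with single libraries left out. In the interaction it was 0, and 1 with the kind of library, 1 in the rRNA-rich libraries alone and 0 to 1 with single libraries left out. Leaving out both shallow IVG-NT day 6 libraries, an alternative chosen after seeing the data that leaves 1 library assumed to vary like the other groups, gave 1 in each of the 3 comparisons that use them. The block changed no other call of these genes. The cause of these moves was not tested.

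Among the fold changes named beyond 1 or without overlap, that of Mad1l1 turned its sign. With single libraries left out it ran from -0.17 to 2.41 on day 6, from -1.63 to 0.95 between the days with NT-4 and from -2.57 to 0.00 in the interaction, each time at the turning end without IVG-NT day 6 replicate 2, and it was 0.39 between the days without both shallow libraries. DESeq2 size factors moved the printed fold changes by 0.29 to 0.45 in IVG-NT against IVG on day 6, by -0.53 to -0.40 between the days with NT-4 and by -0.27 to -0.17 against IVV, with no sign turned among these. Of all 70 fold changes of the 10 genes (7 comparisons), the sign turned in 5 with the DESeq2 Wald test, 7 with the kind of library as a term, 6 with the block and 12 in the rRNA-rich libraries alone, up to a main size of 0.78; Aurkc in IVG against IVV went from -0.56 to 0.07 with the kind as a term. The lowest counts were 40 for Aurkc, 52 for Bub1 and 61 for Mad1l1, all in the shallow libraries. Of the 63 other pathway genes, leaving out a single replicate 3 moved the number past the threshold most: to 8 in IVG against IVV without IVG replicate 3, to 5 in IVG-NT against IVV without IVG-NT replicate 3, and without IVG-NT day 6 replicate 3 to 16 on day 6, 20 between the days with NT-4 and 10 in the interaction. With the replicate block 1 passed on day 6 and 2 between the days with NT-4, where the number in part stands for library kind.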
